A study of Mus musculus with 9 samples.

Results

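Proline, glutamine and aspartate are made from glutamate and its carbon skeleton by a small group of enzymes in the cytosol and mitochondria. The 8 genes described here, Aldh18a1, Pycr1, Prodh, Glul, Glud1, Got1, Got2 and Gpt2, encode such enzymes and were taken by name from a fixed list of 8. All 8 were found among 56620 gene loci with values, and all 8 passed the filter that left 13832 genes for testing, a mean of at least 1 FPKM (fragments per kilobase of transcript, scaled to the mapped fragments of the library) over the libraries.

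As background, Aldh18a1 encodes the mitochondrial enzyme that turns glutamate into pyrroline-5-carboxylate, and reductases such as Pycr1 and Pycrl turn that into proline, while Prodh starts the way back. Glul joins ammonia to glutamate to make glutamine, and Glud1 links glutamate to the citric acid cycle. The transaminases Got1, Got2 and Gpt2 pass amino groups between glutamate and aspartate or alanine, and Got1 and Got2 with malate dehydrogenases form the shuttle that carries reducing equivalents into mitochondria. Endothelial cells are known to take up glutamine avidly and to need glutamine-derived aspartate, asparagine and proline for growth.

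The cells were labelled mouse lung microvascular endothelial cells, bought as primary cells from a supplier and carrying no stated genetic change. There were 9 libraries of total RNA, 3 from each of 3 conditions held for 48 h. RA cells had 21% oxygen (room air), HO cells had 85% oxygen, and HO-rWNT5A cells had 85% oxygen with 100 ng/ml of rWNT5A, a recombinant form of the secreted ligand WNT5A. No label says whether the libraries of a condition came from separate cultures, so each p-value measures the spread between libraries only, and this spread may be technical.

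Of 12 pan-endothelial markers 9 had a mean under 1 FPKM, among them Pecam1 (0.0932) and Cdh5 (0.0544), although Flt1 had 38.0 and Emcn 10.1. The summed level of the 12 ran from 51.4 to 55.9 FPKM over RA, from 49 to 56.1 over HO and from 41 to 50.7 over HO-rWNT5A. Markers of pericytes and smooth muscle summed to 2950 to 3310, 2420 to 3310 and 2710 to 3120 FPKM. Most of that sum came from Acta2 (mean 1578), Tagln (888) and Des (367), while Myh11 (0.237) and Rgs5 (0.759) were under 1 FPKM. Most of the listed endothelial markers were thus low, while several of pericytes and smooth muscle were abundant in every condition. A mean of 5 FPKM was reached by 6 of 8 markers of pericytes and smooth muscle, by 2 of 6 of fibroblasts, by 3 of 7 of epithelium and by 0 of 6 of leukocytes. The part of cell makeup in the results below was not tested, and in such bulk RNA fewer cells of a type cannot be told apart from less RNA per cell. Depth was estimated roughly as 21300000 to 26500000 fragments per library. Small structural RNA took between 20.2% of FPKM (HO replicate 3) and 28.1%. HO replicate 3 also had the most retained intron of its condition, 7.09% of FPKM against 5.49% and 5.26%, and without it 705 genes were called in HO vs RA in place of 272.

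In 85% oxygen the clearest change among the 8 genes was a fall of Aldh18a1, which opens proline synthesis. With rWNT5A added, Aldh18a1, Glul and Gpt2 were all lower than in room air, the last 2 only just past the threshold. No gene of the 8 passed the test between the conditions with and without rWNT5A. Glud1, Got1 and Got2 passed in no comparison, and neither did the low Pycr1 and Prodh.

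The levels, given as FPKM scaled between libraries, spanned a wide range. Glud1 was the most abundant in all 9 libraries, from 54.3 to 66.0 FPKM with a median of 58.5. Got2 followed with 41.9 to 55.1, a range that reached into that of Glud1, and then Glul with 22.6 to 31.8, which lay apart from both. Got1 (15.0 to 18.3) and Aldh18a1 (10.6 to 16.4) overlapped, and Got1 was the higher in 7 of 9 libraries. Gpt2 had 4.45 to 6.98. Prodh (1.31 to 2.18) and Pycr1 (1.11 to 2.23) were the lowest and did not differ beyond their spread. By the rough depth estimate they rested on only about 73 to 132 and 48 to 106 fragments per library, against at least 339 for each of the other genes. Over the 9 libraries the highest value was 2.01 times the lowest for Pycr1, 1.57 times for Gpt2 and 1.54 times for Aldh18a1, but only 1.22 times for Glud1 and Got1.

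**Figure D1:**
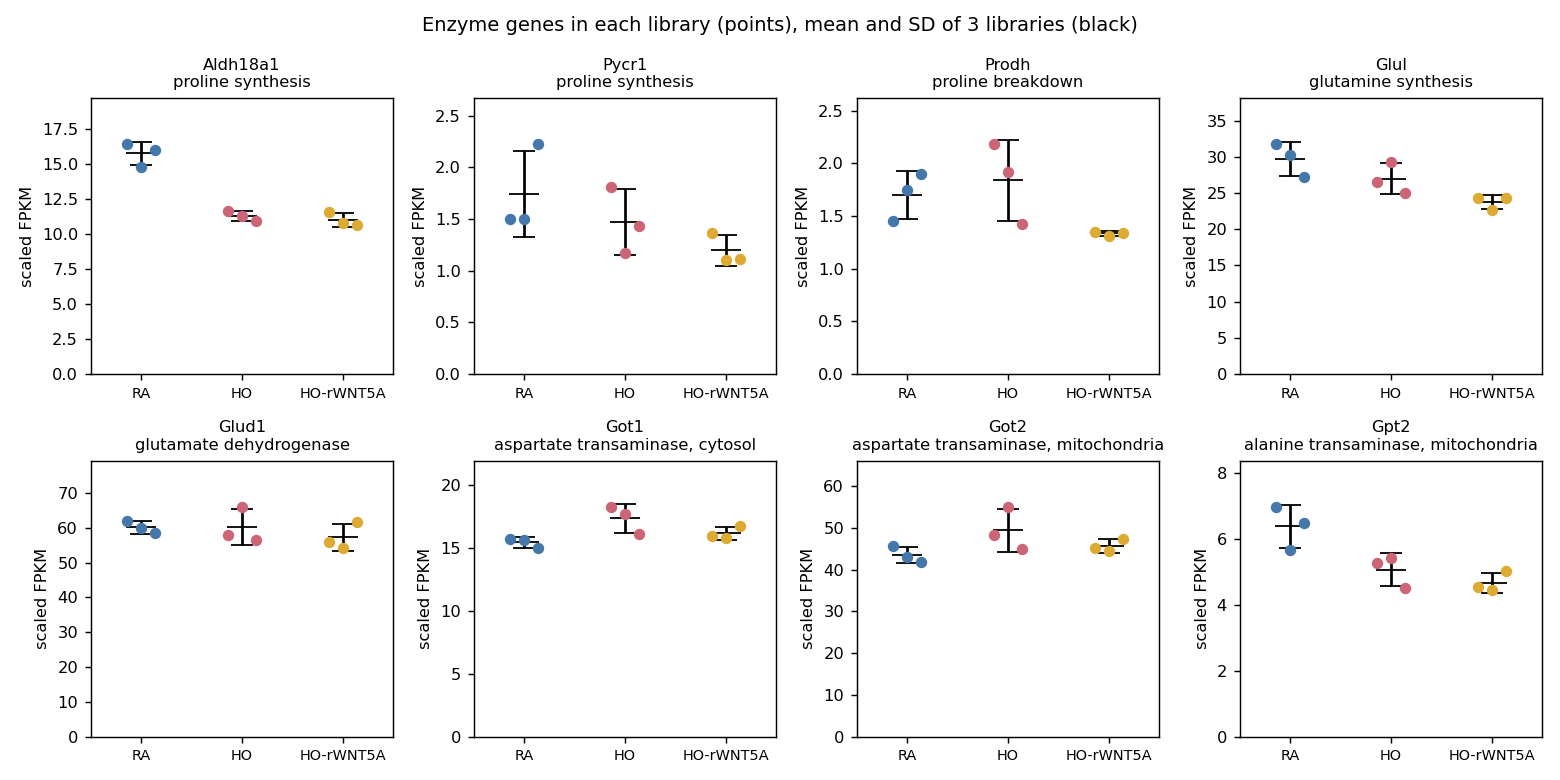
Scaled FPKM (vertical axis, from 0) of each of the 8 genes in the RA, HO and HO-rWNT5A libraries (coloured points), with the mean and SD of 3 libraries in black. Aldh18a1 stands at 14.8 to 16.4 in RA and at 10.6 to 11.6 in the other 6 libraries, while the groups of Glud1 overlap.

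Aldh18a1 (ENSMUSG00000025007.13, chromosome 19, 40550257 to 40588463, minus strand, GRCm38 coordinates from GENCODE M21) has 8 annotated transcripts, of which Aldh18a1-207 and Aldh18a1-201 took 49.4% and 43.1% of its FPKM. Both have 19 exons and code for protein. They differ in the start of exon 1, where Aldh18a1-201 has 94 more bases, none of them coding, and at the 3′ end of exon 7, where it has 6 more coding bases. As background, the enzyme is known in a long and a short form that differ by this small insert and in their inhibition by ornithine. The stretch across the end of exon 7 is shown for both because it is the only coding difference between them, with the additional bases in capitals and 20 bases on each side.
Aldh18a1-201: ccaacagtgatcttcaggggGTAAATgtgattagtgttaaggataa
Aldh18a1-207: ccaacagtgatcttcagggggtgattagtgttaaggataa

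Aldh18a1 had 16.4, 14.8 and 16.0 FPKM in the RA libraries, 11.6, 11.3 and 10.9 in those of HO, and 11.5, 10.8 and 10.6 in those with rWNT5A. Every RA library was above every library in 85% oxygen, and the latter conditions overlapped. The mean fell by 28.3%, from 15.7 ± 0.849 (SD, n = 3) in RA to 11.3 ± 0.345 in HO. On the log2(FPKM + 1) scale, on which all fold changes here are given and which understates changes of low genes, the difference was -0.44 ± 0.0603 (SE, limma adjusted p = 0.0122). With rWNT5A the mean was 11.0 ± 0.494, a log2 difference from RA of -0.48 ± 0.0603 (limma adjusted p = 0.00473). Between HO-rWNT5A and HO the log2 difference was -0.04, with a 95% interval from -0.17 to 0.10 (limma adjusted p = 0.888). The HO vs RA call did not hold without RA replicate 1, 2 or 3, where the limma adjusted p was 0.0624, 0.0644 and 0.066 with log2 fold changes of -0.42, -0.49 and -0.43. In those fits the calls over all genes dropped too, from 272 to 24, 2 and 3.

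The fall was seen in the sum of the transcripts, and the split between the long and the short form varied widely within conditions. Of the FPKM given to these forms, Aldh18a1-207 held 83.2%, 62.3% and 26.3% in the RA libraries, 12.4%, 56.0% and 60.5% in those of HO, and 12.3%, 77.6% and 95.5% in those with rWNT5A. The conditions overlapped. Neither Aldh18a1-207 (log2 fold change -0.82 ± 0.672 in HO vs RA, limma adjusted p = 0.682) nor Aldh18a1-201 (0.06 ± 0.738, limma adjusted p = 0.982) passed alone. Fragments from shared exons can be assigned to either transcript, so the split is uncertain. An intronic pseudogene on the same strand, Gm15801, had 17.6 to 20.7 FPKM and shared no exon base with Aldh18a1.

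**Figure D2:**
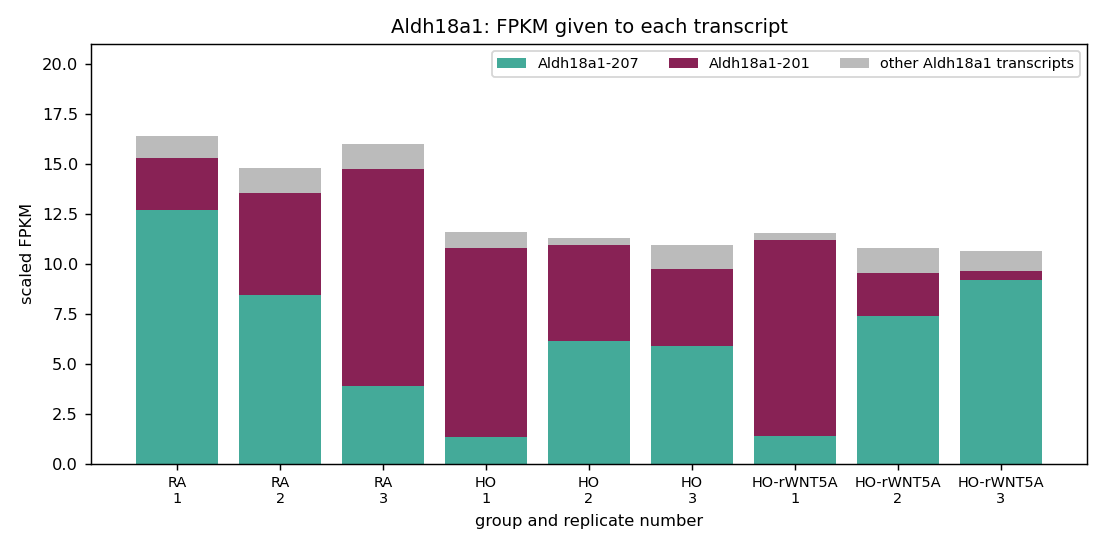
Scaled FPKM (vertical axis) given to Aldh18a1-207 (green), Aldh18a1-201 (purple) and the other Aldh18a1 transcripts (grey) in each of the 9 libraries. The stacked total is lower in the 6 libraries kept in 85% oxygen, while the share of Aldh18a1-207 in the pair runs from 12.3% to 95.5% with no order by condition.

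Pycr1, a mitochondrial pyrroline-5-carboxylate reductase (ENSMUSG00000025140.15, chromosome 11, 120635712 to 120643769, minus strand), had 1.50, 1.50 and 2.23 FPKM in the RA libraries, 1.81, 1.17 and 1.43 in those of HO, and 1.37, 1.11 and 1.11 in those with rWNT5A. RA and HO overlapped, and all HO-rWNT5A libraries were below all RA libraries. The log2 difference was -0.15 ± 0.131 for HO vs RA (limma adjusted p = 0.592) and -0.31 ± 0.131 for HO-rWNT5A vs RA (limma adjusted p = 0.209). Pycrl, another reductase, averaged 10.0 ± 0.683 FPKM in RA against 10.6 ± 1.84 in HO (limma adjusted p = 0.797).

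Prodh, the mitochondrial dehydrogenase that begins proline breakdown (ENSMUSG00000003526.12, chromosome 16, 18060357 to 18090203, minus strand), had 1.45, 1.75 and 1.90 FPKM in the RA libraries, 2.18, 1.91 and 1.42 in those of HO, and 1.35, 1.31 and 1.34 in those with rWNT5A. The HO-rWNT5A libraries were close together and below all libraries of both other conditions. The log2 difference from HO was -0.27 ± 0.113 with a 95% interval from -0.52 to -0.02, and it did not pass after adjustment over all genes (limma adjusted p = 0.515). Between HO and RA it was 0.07 ± 0.113 (limma adjusted p = 0.786). Aldh4a1, the next enzyme of that route, averaged 14.9 ± 1.73 FPKM in RA against 19.0 ± 2.10 in HO (log2 difference 0.33 ± 0.0962, limma adjusted p = 0.111).

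Glul, glutamine synthetase (ENSMUSG00000026473.15, chromosome 1, 153899944 to 153909723, plus strand), had 31.8, 30.3 and 27.2 FPKM in the RA libraries, 26.5, 29.3 and 25.0 in those of HO, and 24.3, 22.6 and 24.3 in those with rWNT5A. HO lay between the other conditions and overlapped RA, and HO-rWNT5A was below every RA and HO library. From RA to HO-rWNT5A the mean fell by 20.1%, from 29.7 ± 2.34 to 23.8 ± 0.973, a log2 difference of -0.31 ± 0.0745 (limma adjusted p = 0.0477). This call did not hold in 11 of 20 alternative settings, among them each of the 6 that left out 1 library, where the limma adjusted p was at most 0.163. The steps that make it up were -0.14 ± 0.0745 for HO vs RA (limma adjusted p = 0.366) and -0.17 ± 0.0745 for HO-rWNT5A vs HO (limma adjusted p = 0.531). The leading Glul transcript shares 116 exon bases with Teddm2 on the other strand and 93 with Mir8114, which had means of 0.0901 and 0.0236 FPKM.

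Glud1, glutamate dehydrogenase (ENSMUSG00000021794.16, chromosome 14, 34310727 to 34345265, plus strand), had 62.0, 59.8 and 58.5 FPKM in the RA libraries, 58.0, 66.0 and 56.5 in those of HO, and 55.9, 54.3 and 61.7 in those with rWNT5A. All conditions overlapped. The log2 difference of HO from RA had a 95% interval from -0.16 to 0.16 (limma adjusted p = 0.998), so a change of the size seen for Aldh18a1 lies outside it. For HO-rWNT5A vs RA the interval ran from -0.23 to 0.09 (limma adjusted p = 0.638).

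Both aspartate transaminases had higher means in HO than in RA, but neither passed the test. Got1, the cytosolic form (ENSMUSG00000025190.13, chromosome 19, 43499752 to 43524605, minus strand), had 15.7, 15.7 and 15.0 FPKM in the RA libraries, 18.3, 17.7 and 16.1 in those of HO, and 16.0, 15.8 and 16.7 in those with rWNT5A. Each library in 85% oxygen was above each RA library. The log2 difference of HO from RA was 0.16 ± 0.0598 (limma adjusted p = 0.201). With 1 library left out it ran from 0.12 to 0.21, the latter without HO replicate 3. The limma adjusted p ran from 0.0583 in that fit to 0.453. Got2, the mitochondrial form (ENSMUSG00000031672.8, chromosome 8, 95864134 to 95888547, minus strand), had 45.7, 43.1 and 41.9 FPKM in the RA libraries, 48.2, 55.1 and 45.0 in those of HO, and 45.2, 44.4 and 47.4 in those with rWNT5A. HO replicate 2 was the highest library, and the groups overlapped. The log2 difference of HO from RA was 0.18 ± 0.0738 (limma adjusted p = 0.244). With 1 library left out it ran from 0.10 (without HO replicate 2, limma adjusted p = 0.516) to 0.24. Over all 20 alternative settings the limma adjusted p of Got2 was at least 0.0697. Got1 held 26.2% ± 0.557 of the pair over RA, 26.0% ± 1.61 over HO and 26.1% ± 0.0893 over HO-rWNT5A (SD, n = 3). A processed pseudogene of Got2 on chromosome 5, Got2-ps1, had a mean of 3.30 FPKM, and how fragments that match both were assigned is not given in the sources used here.

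Gpt2, the mitochondrial alanine transaminase that joins glutamate and pyruvate to alanine and 2-oxoglutarate (ENSMUSG00000031700.11, chromosome 8, 85492576 to 85527560, plus strand), had 6.98, 5.68 and 6.49 FPKM in the RA libraries, 5.28, 5.42 and 4.51 in those of HO, and 4.55, 4.45 and 5.02 in those with rWNT5A. All RA libraries were above all others, and HO and HO-rWNT5A overlapped. The log2 difference of HO from RA was -0.28 ± 0.0888 and did not pass (limma adjusted p = 0.137). From RA to HO-rWNT5A the mean fell by 26.8%, from 6.38 ± 0.658 to 4.67 ± 0.301, a log2 difference of -0.38 ± 0.0888 (limma adjusted p = 0.0441). That call did not hold in 10 of 20 alternative settings, among them each of the 6 that left out 1 library (limma adjusted p at most 0.154). The difference between HO-rWNT5A and HO was -0.10 with a 95% interval from -0.29 to 0.10 (limma adjusted p = 0.776). Gpt, the cytosolic form, averaged 1.51 ± 0.198 FPKM in RA against 1.23 ± 0.338 in HO (limma adjusted p = 0.503).

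Across the 8 genes, 1 was past the threshold of 0.05 in HO vs RA, where 1.97% of all genes were called (0.759% as lower). The groups did not overlap for 2 genes that were lower, Aldh18a1 and Gpt2, against 10.1% of all genes, and for 1 that was higher, Got1, against 11.3%. In HO-rWNT5A vs RA 3 were called, all lower, where 4.25% of all genes were called (1.86% as lower). There the groups were apart for 5 lower genes (Aldh18a1, Pycr1, Prodh, Glul and Gpt2), against 16.5% of all genes, and for 1 higher gene (Got1), against 16.3%. These comparisons share the RA libraries. In HO-rWNT5A vs HO limma called 0 of the 8 genes, where 0.00723% of all genes were called. An unadjusted p under 0.05, held by 9.2% of all genes, was reached by 2, Prodh and Glul, and these were the 2 whose groups were apart and lower, against 6.69% of all genes. All 8 log2 differences in that comparison were below 0, as were 6822 of all 13832 genes and 24 of 37 tested other genes of these routes. The 8 were measured in the same libraries, so they are not 8 separate signs. Their median was -0.10 against 0.00 over all genes, and the difference of Prodh was the farthest from 0. Median log2 differences of the 8 were -0.07 in HO vs RA and -0.26 in HO-rWNT5A vs RA.

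**Figure D3:**
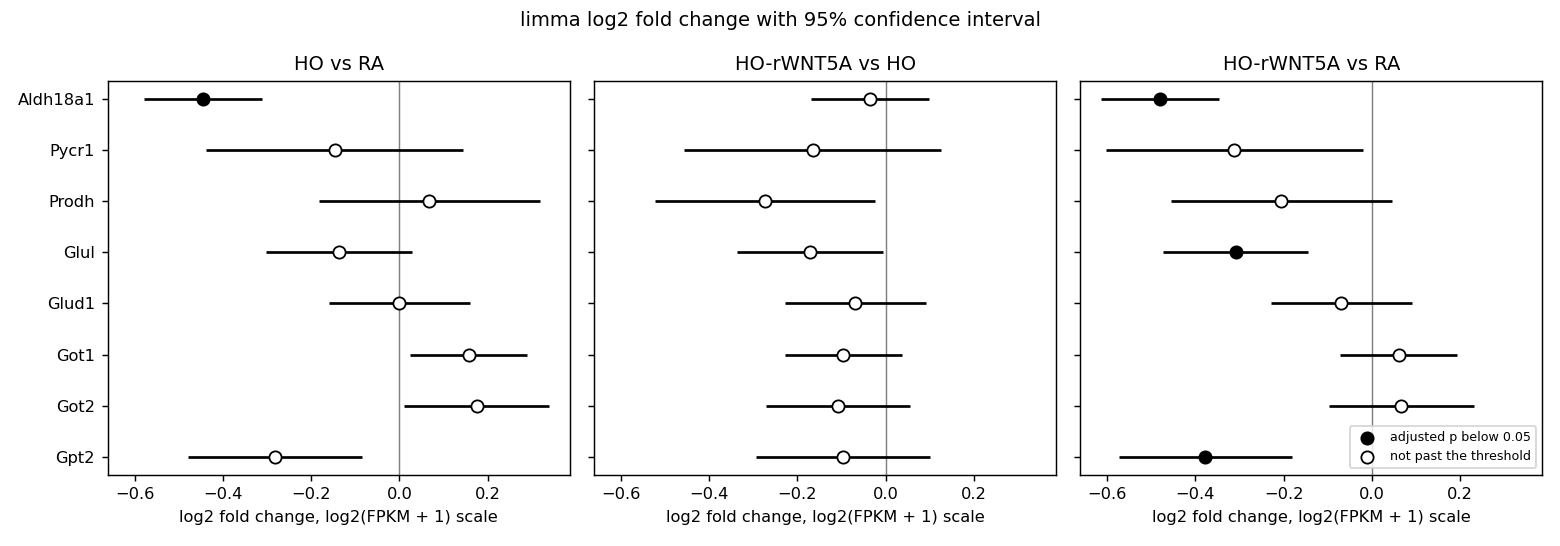
log2 fold change (horizontal axis, log2(FPKM + 1) scale) of the 8 genes in the 3 comparisons, with 95% confidence intervals as lines. Filled points have a limma adjusted p below 0.05, which holds for Aldh18a1 in HO vs RA, for none in HO-rWNT5A vs HO, and for Aldh18a1, Glul and Gpt2 in HO-rWNT5A vs RA.

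Of 47 annotated transcripts of the 8 genes, 10 reached a mean of 1 FPKM and 8 were listed at 0 in every library. Outside Aldh18a1, the leading transcript held 74.8% of the FPKM of Prodh, 81.5% of that of Pycr1 and 92.4% to 95.7% of the others. The gene sums of Glul, Glud1, Got1, Got2 and Gpt2 were therefore close to the level of a single protein-coding transcript. In limma 0 of the 10 passed in any comparison, where 0.00765%, 0.0115% and 0.0191% of 26143 transcripts were called in HO vs RA, HO-rWNT5A vs HO and HO-rWNT5A vs RA. At an unadjusted p under 0.05 there were 2, 0 and 2, where 11.2%, 6.79% and 11.2% of all transcripts stood. For Glul-201 the log2 difference of HO-rWNT5A from RA was -0.29 ± 0.092 (limma adjusted p = 0.307), and for Gpt2-201 it was -0.34 ± 0.109 (limma adjusted p = 0.314).

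The other genes of these routes were counted from a list of 46, of which 37 reached a mean of 1 FPKM and were tested, and Prodh2, the second proline dehydrogenase gene, was listed at 0 in every library. In HO vs RA 1 fell and 0 rose in limma, where 1.97% of all genes were called, and 8 had an unadjusted p under 0.05, as did 18.2% of all genes. For these 37 genes both counts were near the share over all genes. The gene that fell was Psat1, a transaminase that uses glutamate in serine synthesis, with 30.8 ± 0.853 FPKM in RA against 24.0 ± 1.77 in HO (log2 difference -0.35 ± 0.0693, limma adjusted p = 0.0364). The count was 0 without HO replicate 2 or RA replicate 1, 2 or 3, where the limma adjusted p of Psat1 was 0.0772, 0.105, 0.114 and 0.142, and 3, of which 2 were higher, without HO replicate 3. In HO-rWNT5A vs HO 0 passed in limma, against 1 at an unadjusted p under 0.05 (9.2% of all genes). In HO-rWNT5A vs RA 4 fell and 0 rose, where 4.25% of all genes were called and 1.86% called as lower. With the 2 groups fitted alone 5 fell and 1 rose. Without HO-rWNT5A replicate 1, 2 or 3 the count was 2, 0 and 1, and without RA replicate 1, 2 or 3 it was 1 each time.

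Those 4 genes were Psat1, Asns, Gfpt1 and Gfpt2. They encode enzymes that use glutamate or glutamine as the amino donor, a trait of many genes on these lists. Others with it, such as Ppat, Pfas and Ctps, did not pass in HO-rWNT5A vs RA (limma adjusted p = 0.505, 0.672 and 0.751). Nadsyn1 did not pass either, but was lower, with a log2 difference of -0.28 (limma adjusted p = 0.113). Asns, asparagine synthetase, averaged 39.0 ± 3.07, 30.01 ± 2.74 and 26.9 ± 1.94 FPKM in the 3 conditions, from RA to HO to HO-rWNT5A. It passed for HO-rWNT5A vs RA (log2 difference -0.52 ± 0.0838, limma adjusted p = 0.0114) and not for HO vs RA (-0.37 ± 0.0838, limma adjusted p = 0.0563). Without HO-rWNT5A replicate 2 it was not called (limma adjusted p = 0.0525). Gfpt1 and Gfpt2 start hexosamine synthesis. Gfpt1 had 17.2 ± 0.669, 15.2 ± 0.376 and 14.4 ± 0.198 FPKM in the 3 conditions, and Gfpt2 had 2.92 ± 0.303, 2.48 ± 0.203 and 2.04 ± 0.146. Their limma adjusted p for HO-rWNT5A vs RA were 0.0343 and 0.0473, and at least 0.0845 and 0.0882 without any 1 of the 6 libraries.

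By route, 0 of 10 tested genes of proline, ornithine and arginine metabolism passed in any comparison. At an unadjusted p under 0.05 there were 2 in HO vs RA, 1 in HO-rWNT5A vs HO and 5 in HO-rWNT5A vs RA, where 18.2%, 9.2% and 20.9% of all genes stood. Besides Aldh4a1, the smallest p in HO vs RA belonged to Pepd, a peptidase that frees proline (22.6 ± 1.32 FPKM with room air and 19.2 ± 1.17 in HO, limma adjusted p = 0.116). Next were Asl of the urea cycle (10.6 ± 0.561 and 8.92 ± 0.957, limma adjusted p = 0.281) and the polyamine enzyme Odc1 (96.2 ± 3.29 and 105 ± 10.5, limma adjusted p = 0.437). Oat, which links ornithine to the same intermediate as Aldh18a1, had 33.5 ± 0.398 and 31.3 ± 2.41 FPKM (limma adjusted p = 0.493). Of 10 tested genes of aspartate and asparagine metabolism and the malate-aspartate shuttle, Asns alone passed, and only in HO-rWNT5A vs RA. The mitochondrial malate dehydrogenase Mdh2, the partner of Got2 in the shuttle, averaged 119 ± 1.85 FPKM in RA against 133 ± 17.3 in HO (limma adjusted p = 0.39), and the cytosolic Mdh1 had 5.96 ± 0.417 and 6.73 ± 0.370 (limma adjusted p = 0.575). Of 9 tested genes of glutamine and glutamate metabolism Psat1 alone passed, in both comparisons with RA. Gclc, which uses glutamate for glutathione, averaged 32.0 ± 0.442 FPKM in RA against 35.9 ± 0.987 in HO (limma adjusted p = 0.113). Of 8 tested glutamine amidotransferases 0 passed in HO vs RA in limma, against 3 at an unadjusted p under 0.05 (18.2% of all genes), and 2 passed in HO-rWNT5A vs RA (4.25% of all genes), the Gfpt genes above.

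Several of these enzymes are also known targets of ATF4, the transcription factor of the integrated stress response. Of 13 tested genes of that response 4 fell in HO vs RA and 0 rose, with a median log2 difference of -0.35, where 1.97% of all genes were called. In HO-rWNT5A vs RA 6 fell and 0 rose with a median of -0.37, where 4.25% of all genes were called. With no filter on low values the counts were 1 and 3, and with the 2 compared groups fitted alone they were 2 and 10, 2 of the 10 being higher. Without RA replicate 1, 2 or 3 the counts were 1, 0 and 0 in HO vs RA and 4, 5 and 4 in HO-rWNT5A vs RA. With HO replicate 2 left out the HO vs RA count was 2, and with HO-rWNT5A replicate 2 left out the other was 3. The 4 that fell in HO vs RA were the folate enzymes Mthfd2 and Aldh1l2, the pseudokinase Trib3 and Psat1. Their log2 differences were -0.68, -0.85, -0.70 and -0.35, against -0.44 for Aldh18a1. Of the 13 genes 4 had differences above 0, namely Atf4, Sesn2 (0.19, limma adjusted p = 0.116), Ddit3 (0.07) and Phgdh (0.06). Atf4 itself averaged 83.9 ± 4.24 FPKM in RA against 97.5 ± 7.94 in HO (log2 difference 0.21 ± 0.0702, limma adjusted p = 0.152). Whether ATF4 had a part in the fall of Aldh18a1 was not tested.

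**Figure D4:**
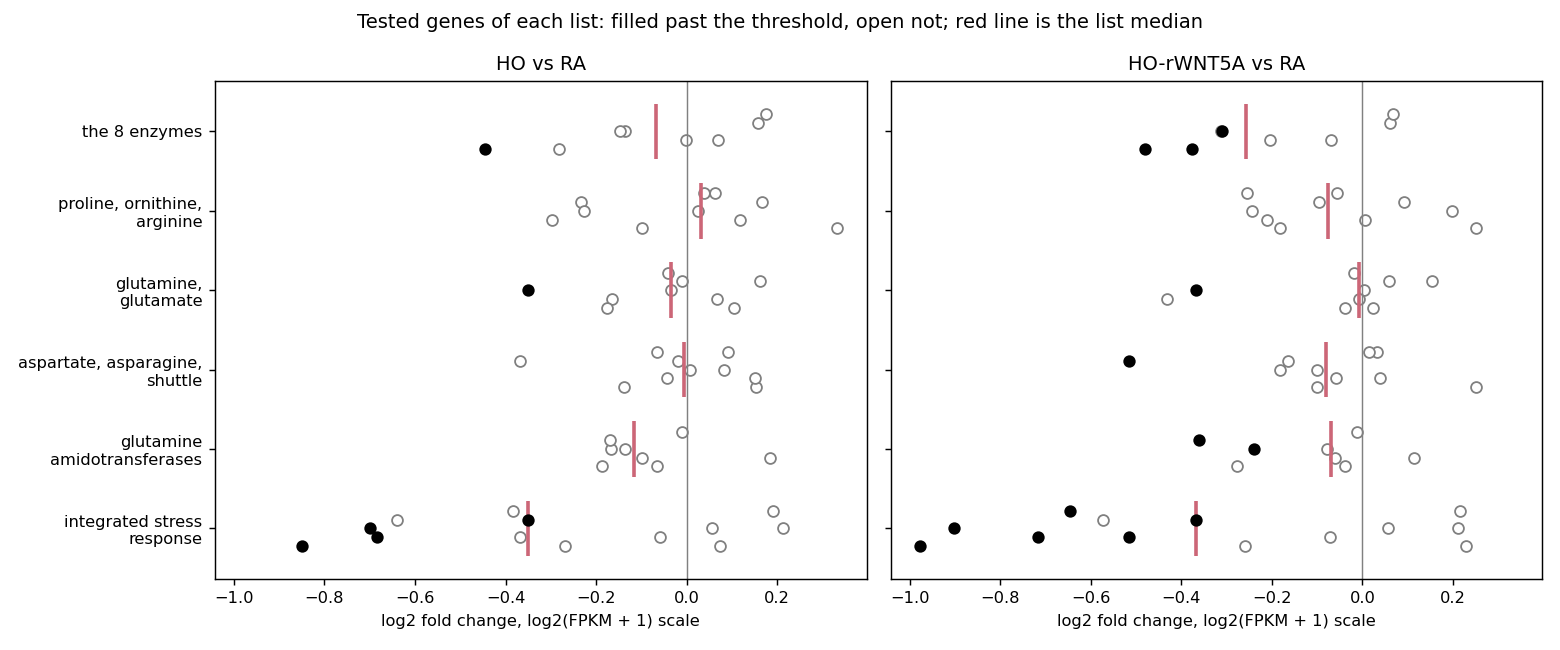
log2 fold change (horizontal axis) of each tested gene of the 6 lists in HO vs RA and in HO-rWNT5A vs RA, which share the RA libraries. Filled points are past the limma threshold and red lines are list medians. The 8 enzymes have medians of -0.07 and -0.26, and every filled point lies below 0.

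The genes whose level followed each enzyme most closely over the 9 libraries were named by Pearson's r among 11092 other protein-coding genes, as a description. The libraries share their condition, so a gene that differs between conditions resembles others that do. For Aldh18a1 these were the mitochondrial folate enzyme Aldh1l2 (r = 0.977), the replication helicase subunit Mcm4 (0.975) and Swap70 (0.974). For Gpt2 they were Tbc1d5 (0.982), the amino acid transporter subunit Slc3a2 (0.965) and Ralb (0.963), and for Glul Bphl (0.976), Arl6ip1 (0.973) and Smim1 (0.954). Got2 was followed by Dynll2 (0.981), Tmem37 (0.977) and the proton pump subunit Atp6v0c (0.97), Got1 by the centromere protein Cenpw (0.959), Pmpca (0.952) and Mpdu1 (0.946), and Glud1 by Pdlim1 (0.941), Rras2 (0.939) and Spg21 (0.937). For the low genes they were Enpp1 (0.974), Hist1h2ad (0.949) and Ak6 (0.938) for Pycr1, and Hist2h4 (0.957), Sf3b6 (0.932) and Cldn7 (0.917) for Prodh. Among the 8 themselves, Aldh18a1 was closest to Gpt2 (r = 0.897) and Glul to Gpt2 (0.828), and Got1 was closest to Got2 (0.828). Aldh18a1 and Got1 ran against each other (r = -0.56).

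Promoters of the 8 genes were found in RefSeq (GRCm38.p6) for all 8, and the 250 bases before each start were searched on both strands for TGATGNAA, a core of the amino acid response element that ATF4 with a partner is known to bind. It stood in 2 of the 8, Pycr1 and Got1, and in 3.45% of 32851 promoter entries in windows of the same length. In Pycr1 it began 103 bases before the start and in Got1 102 bases before it, on the other strand. CACGTG, the E-box bound by MYC and related factors, was searched after the promoters had been seen. It stood in 1 of the 8, Aldh18a1, 59 bases before the start, and in 6.02% of entries. The windows around these matches are shown because they are the matches found, with the match in capitals and each sequence read along its gene's strand.
Aldh18a1, chr19:40588497-40588542, minus strand: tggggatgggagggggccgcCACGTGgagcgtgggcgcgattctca
Pycr1, chr11:120643824-120643871, minus strand: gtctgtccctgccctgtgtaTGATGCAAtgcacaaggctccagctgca
Got1, chr19:43524680-43524727, minus strand: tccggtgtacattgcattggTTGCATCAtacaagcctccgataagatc
A match is a description of the letters and not a bound site. Genes other than Pycr1 and Got1, Aldh18a1 among them, had no TGATGNAA in this window, and bases outside it were not searched. Whether a match goes with a change in level was not tested.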

How the data were processed

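Per the labels' protocols, reads were trimmed with Skewer 0.2.2, aligned with STAR 2.5.3a to an Ensembl genome and assembled with StringTie 1.3.1, and the merged transcripts were compared with Ensembl by gffcompare 0.9.9c. The submitters' processing notes name the builds hg38 and mm10 without a role, and only mouse identifiers are listed. The authors deposited FPKM values for 143043 transcripts in 9 libraries, normalized by the authors. Of 142351 Ensembl identifiers 99.36% were matched to GENCODE M21 (GRCm38). FPKM was summed per gene, and libraries were scaled by median ratios of genes above 0 in all of them. Genes averaging 1 FPKM or more were tested on log2(FPKM + 1) with limma 3.58.1 in R 4.3.3, with group means over all 9 libraries, a variance trend, two-sided tests and Benjamini-Hochberg adjustment over all genes. Transcripts were tested alike. At most 9.06% of low values were whole multiples of the worth of 1 fragment, within 0.02, so reads could not be recovered and no count test was run. No pair of libraries held identical values. The 8 genes, the lists and the tests were chosen with earlier results of these data known. All 8 genes were named whatever their values, together with each listed gene past the threshold and otherwise up to 4 per list by p, and the 3 most correlated genes per enzyme. Alternatives were pseudocounts, filters, scalings, variance models, the 2 groups alone, a replicate block, each library left out, and transcript sets. An exact permutation test of 3 against 3 cannot go below 0.1. Tables and plots used Python 3.11.15, pandas 2.3.3 and matplotlib 3.10.9.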

Additional observations from a re-analysis of the deposited data

How the results depend on the processing

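The fall of Aldh18a1 kept its sign in all 20 alternatives of HO vs RA (log2 fold change -0.50 to -0.35) and of HO-rWNT5A vs RA (-0.54 to -0.37), and in the latter it passed each time. Of the 8 enzymes, 1 passed in HO vs RA, and 0 to 1 did when 1 library was left out. In HO-rWNT5A vs RA 3 passed, against 1 with no filter on low values, with equal FPKM totals, with the replicate block and with protein-coding transcripts alone, and 1 without any single library. In HO-rWNT5A vs HO 0 passed under every alternative run. Of the other pathway genes 1 passed in HO vs RA, against 0 with no filter, equal totals, no variance trend, the 2 groups alone, the replicate block or protein-coding transcripts alone, 2 with a filter at 5 FPKM, unscaled FPKM, quantile normalization or protein-coding totals, and 0 to 3 with 1 library left out. In HO-rWNT5A vs RA 4 passed, against 1 with no filter, 2 with equal totals, protein-coding totals or the replicate block, 5 on FPKM as deposited, 6 (1 of them higher) with the 2 groups alone, and 0 to 2 with 1 library left out. The cause of these differences was not tested. Fits without a filter test more genes, and fits with 1 library left out hold fewer samples. Signs turned only where no call was made: in HO vs RA the log2 fold change of Prodh ran from -0.0189 to 0.178 and that of Glud1 from -0.0683 to 0.0420 with 1 library left out, Glud1 was 0.00841 with protein-coding transcripts alone, and on FPKM as deposited Got1 and Got2 in HO-rWNT5A vs RA were -0.00338 and -0.000398. Over all genes the calls in HO vs RA split into 167 higher and 105 lower, against 103 and 176 on FPKM as deposited, 26 and 29 with equal totals and 105 and 95 with protein-coding totals, and in HO-rWNT5A vs RA into 331 and 257, against 209 and 613, 93 and 163, and 321 and 221. Whether replicate numbers pair the libraries was not settled by these values. Same-numbered libraries had deviations correlated from -0.117 to 0.279, with 3 of 9 pairs above 0.1, against -0.251 to 0.172 for other pairs. Of 9 libraries 5 were closest to their own number. With the replicate block the calls over all genes were 115 in HO vs RA and 392 in HO-rWNT5A vs RA, against 272 and 588. By the rough depth estimate Pycr1 and Prodh rest on few fragments, and they had the widest intervals of the 8 genes.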
